A study of Mus musculus with 20 samples.

Results

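The genes described here are 7 that encode enzymes, and in 1 case a partner protein of an enzyme, of nitric oxide and oxidised arachidonate metabolism: Nos2, Ptgs1, Ptgs2, Ptges, Alox5, Alox5ap and Alox15. They were taken by name, with earlier results of these data known, and all 7 were among the 25219 genes measured. RNA was sequenced from inguinal white adipose tissue (iWAT) and brown adipose tissue (BAT) of male mice on a mixed C57Bl/6 background, in 5 Control and 5 Ai-α4KO libraries per tissue. Ai-α4KO mice carried floxed alleles of Igbp1, which encodes α4, a regulatory partner of the PP2A family of phosphatases, and an Adiponectin-CreERT2 transgene that deletes them in adipocytes after tamoxifen. Control mice had the floxed alleles without the transgene, and the labels call them WT. Both genotypes received 5 tamoxifen injections of 100 mg/kg over 6 days from 2 months of age, and tissue was taken about 1 week after recombination. The transgene acts in adipocytes, while the RNA came from whole tissue with all its cell types. In bulk tissue, fewer cells of a type and less RNA per cell cannot be told apart. Nothing in the labels says that libraries of a group came from separate animals, or whether the same mice gave both tissues, so p-values measure the spread between these libraries.

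Nitric oxide synthases make nitric oxide and citrulline from arginine. Arachidonate, released from membrane lipids by phospholipases, is the shared substrate of cyclooxygenases, the first step to prostaglandins and thromboxane, and of lipoxygenases, the first step to leukotrienes and lipoxins. In adipose tissue these enzymes are known from macrophages, neutrophils, endothelium, stromal cells and adipocytes, in proportions that differ between the genes.

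The sequences just before the starts of 3 prostanoid genes are shown first, because Ptgs1 and Ptgs2 encode enzymes of the same reaction and Ptges the step after it, and the genes differed in response. They are the 250 bases before the RefSeq start in GRCm38.p6, 5′ to 3′ on the strand of the gene, with capitals marking matches to the motifs searched. Ptgs1 is at chr2:36230176-36230425 on the plus strand, Ptgs2 at chr1:150099781-150100030 on the plus strand and Ptges at chr2:30903298-30903547 on the minus strand.
Ptgs1: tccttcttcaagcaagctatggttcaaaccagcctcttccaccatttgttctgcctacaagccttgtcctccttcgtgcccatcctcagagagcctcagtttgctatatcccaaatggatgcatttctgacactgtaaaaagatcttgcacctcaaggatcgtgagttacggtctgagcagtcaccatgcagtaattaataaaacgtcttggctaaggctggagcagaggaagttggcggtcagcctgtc
Ptgs2: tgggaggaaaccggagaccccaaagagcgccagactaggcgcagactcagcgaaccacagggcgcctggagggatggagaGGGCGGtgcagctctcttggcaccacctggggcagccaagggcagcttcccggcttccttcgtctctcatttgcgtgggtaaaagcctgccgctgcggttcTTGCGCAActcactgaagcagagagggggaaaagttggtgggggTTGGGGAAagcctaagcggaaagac
Ptges: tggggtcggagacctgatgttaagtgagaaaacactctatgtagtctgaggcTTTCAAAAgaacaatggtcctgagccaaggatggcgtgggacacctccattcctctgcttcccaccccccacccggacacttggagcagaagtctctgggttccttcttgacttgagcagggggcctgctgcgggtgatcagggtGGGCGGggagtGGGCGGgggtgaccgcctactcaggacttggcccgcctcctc

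Of the 7 genes, 4 had a window in the RefSeq table, the 3 above and Alox5, while Nos2, Alox5ap and Alox15 had none. Windows of 300 bases, with 50 bases after the start, were searched on both strands. The motifs were the NF-kB letters GGNNTTTCC, the C/EBP letters TTNNGNAA, the CRE core site TGACG, the E-box CACGTG, the AP-1 letters TGANTCA, the GC box GGGCGG and the TATA box TATAAA. Ptgs2 matched C/EBP at 69 and 25 bases before the start and the GC box at 170. After its start, the CRE core site at base 14 and the E-box at base 17 overlapped. In Ptges the GC box matched at 53 and 42 bases and C/EBP at 198 bases before the start, in Alox5 the GC box matched at 35 bases, and the Ptgs1 window held none of these letters. Among all 32851 windows the C/EBP letters occurred in 40.7%, the GC box in 35.7%, the CRE core site in 20.8%, the TATA box in 13.6%, the AP-1 letters in 7.81%, the E-box in 7.15% and the NF-kB letters in 5.82%. The deposited table places the start of Ptgs2 at 150100124, downstream of the RefSeq start used for the window. The overlapping CRE core site and E-box lie within 150100035 to 150100064, before that deposited start.

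Library totals ran from 24023371 to 50384446 counts. Levels are given as CPM, the count relative to the library total, with TMM scaling over all 20 libraries, and fold changes come from edgeR's quasi-likelihood test within a tissue. A gene was called at an adjusted p below 0.01 and at least a 2-fold change. Igbp1, the targeted gene, was at 57.5 to 76.6 CPM in iWAT of Control and 10.1 to 11.1 in that of Ai-α4KO mice, and at 85.4 to 105 CPM in Control BAT and 13.7 to 25.2 in Ai-α4KO BAT. Brown adipocyte markers set the tissues apart as labelled, and their summed level was 153 to 1060 CPM in Control iWAT and 8930 to 13400 in Control BAT. Control iWAT libraries 1 and 4 stood apart by B cell markers, at 467 and 187 CPM against 5.97 to 7.80 in the other 3 libraries. Control iWAT library 4 and Ai-α4KO iWAT library 1 stood apart by skeletal muscle markers, at 6720 and 5300 CPM against at most 170 in the other iWAT libraries. The same Control iWAT libraries 1 and 4 held the most T cell markers. Epithelial markers were at 59.3 and 22.7 CPM in these 2 libraries, and at 49.8 and 104 in Ai-α4KO iWAT libraries 1 and 2. The other iWAT libraries held 1.01 to 5.67 CPM of them. Values without these libraries are given beside the calls they change.

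In iWAT all 7 genes were tested, and 4 of them rose in Ai-α4KO libraries, Ptgs1, Ptgs2, Alox5 and Alox5ap, where 11.3% of all genes tested did so. Nos2 fell, against 10.7% of all genes. In 4 of the 7 the libraries of the genotypes did not overlap, against 39% of all genes. Their median log2 fold change was 1.17, and that of all 14604 genes tested 0.015. In BAT all 7 were tested too, and Ptgs2, Alox5 and Alox5ap rose, 3 genes against a background of 18.2%. Nos2 was the gene that fell there, with 13.3% of all genes in that direction. The libraries of the genotypes did not overlap for 5 of the 7, against 47.6% of all genes. The median over the 7 in BAT was 1.80, and -0.032 over all 14344 genes tested. Without normalization factors the BAT calls over all genes shifted from 2614 higher and 1910 lower to 3251 higher and 1265 lower, and the median of all genes moved by 0.263 on the log2 scale, against 0.120 in iWAT. Under that scaling 5 of the 7 rose in BAT, Ptgs1 and Ptges in addition, and without Control BAT library 4 Ptgs1 and Alox15 were added instead. No gene of the 7 changed direction in either tissue under another scaling.

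**Figure D1:**
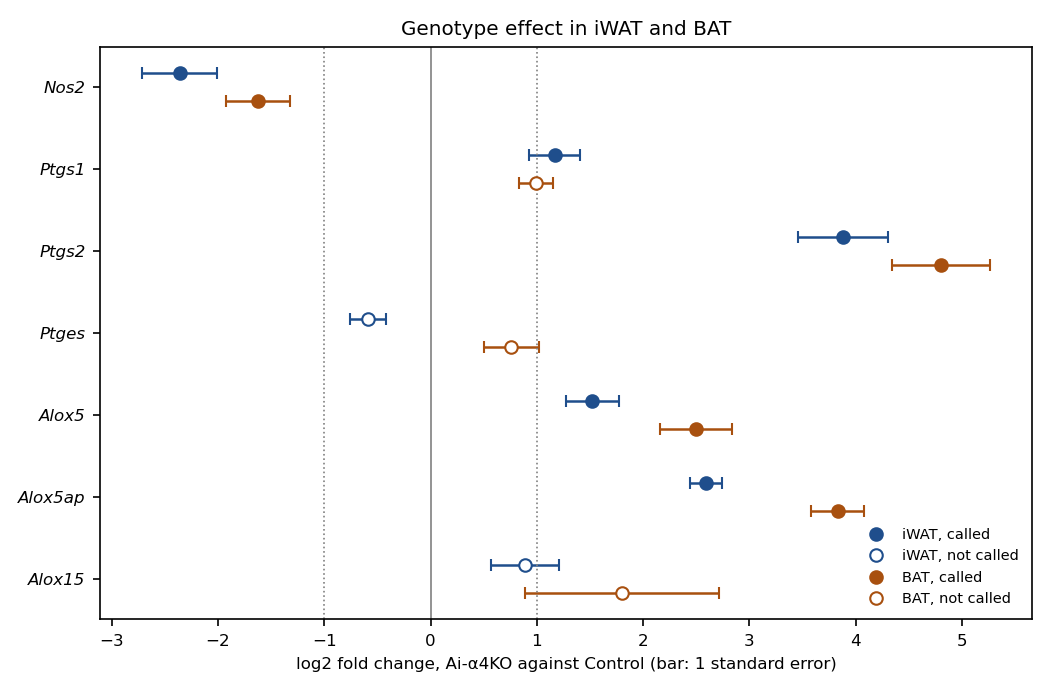
Log2 fold change of Ai-α4KO against Control (horizontal axis) for each of the 7 genes in iWAT (blue) and BAT (brown), from edgeR. Bars are 1 standard error, filled points were called at an adjusted p below 0.01 and 2-fold, and dotted lines mark 2-fold; Nos2 lies to the left in both tissues, and Ptgs2 lies farthest to the right.

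Nos2, the inducible nitric oxide synthase (chromosome 11, 78920859 to 78960124 in mm10), fell in both tissues. In libraries 1 to 5 of Control iWAT it was at 8.56, 3.26, 4.02, 3.85 and 4.81 CPM, and in those of Ai-α4KO iWAT at 1.26, 0.934, 0.735, 1.34 and 0.519 CPM. Every Ai-α4KO iWAT library lay below every Control library, and the log2 fold change was -2.36 (adjusted p = 0.000188, standard error 0.35). BAT libraries held 10.7, 4.97, 6.80, 11.4 and 13.8 CPM in Control and 3.12, 3.53, 2.33, 2.45 and 4.50 CPM in Ai-α4KO. Again no library of one genotype reached those of the other, with a log2 fold change of -1.62 (adjusted p = 0.000495, standard error 0.30). The mean level fell in the order Control BAT, Control iWAT, Ai-α4KO BAT and Ai-α4KO iWAT, and of these neighbours the last pair did not overlap. On the log2(FPKM + 1) scale, where a pseudocount of 1 is large beside the group means of Nos2, 0.236 to 1.87 FPKM, the change was -0.75 in iWAT and -0.70 in BAT, under 2-fold but with adjusted p of 0.000824 and 0.0042 from limma.

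The endothelial synthase Nos3 fell along with Nos2. Nos3 was at 46.1 to 58.9 CPM in iWAT of Control and 6.85 to 18.6 in that of Ai-α4KO mice, a log2 fold change of -2.06 (adjusted p = 5.33e-05, standard error 0.25). In BAT it was at 19.6 to 33.3 CPM in Control and 8.21 to 13.1 in Ai-α4KO libraries, with a log2 fold change of -1.5 (adjusted p = 1.54e-05, standard error 0.18). Per transcript length, Nos2 made up a median of 7.77% of the summed Nos2 and Nos3 FPKM in iWAT of Control and 7.26% in that of Ai-α4KO mice. The share was higher in BAT, with a median of 26.1% in Control and 23.1% in Ai-α4KO libraries. No difference between genotypes was detected in the log2 ratio of Nos2 to Nos3, which had a mean of -3.33 ± 0.49 in iWAT of Control and -3.15 ± 0.23 in that of Ai-α4KO mice, and of -1.51 ± 0.43 and -1.52 ± 0.28 in BAT (SD, n = 5; exact permutation test, two-sided, adjusted p = 0.526 and 1 over 8 comparisons). In iWAT this depended on the pseudocount of 0.1 FPKM: the difference was 0.18 with it, 0.94 with a pseudocount of 1 (exact permutation test, adjusted p = 0.0212) and -0.14 with 0.01 (adjusted p = 0.849). Endothelial markers moved in the same direction as both synthases. Their summed level was 392 to 523 CPM in Control and 237 to 284 in Ai-α4KO iWAT, and 692 to 954 and 286 to 370 in BAT, and 2 of 6 in iWAT and 3 of 6 in BAT fell. Adipocyte markers fell for 8 of 10 genes in iWAT and 7 of 10 in BAT, from 23600 to 31700 down to 12000 to 16900 CPM in iWAT and from 23400 to 25900 down to 13300 to 16000 in BAT. Brown adipocyte markers fell for 6 of 8 genes in iWAT and 4 of 8 in BAT, and their summed level in Ai-α4KO was 36.6 to 82.3 CPM in iWAT and 1720 to 3610 in BAT, below every Control library of the tissue. The part of these cell types in the nitric oxide synthase result was not tested.

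**Figure D2:**
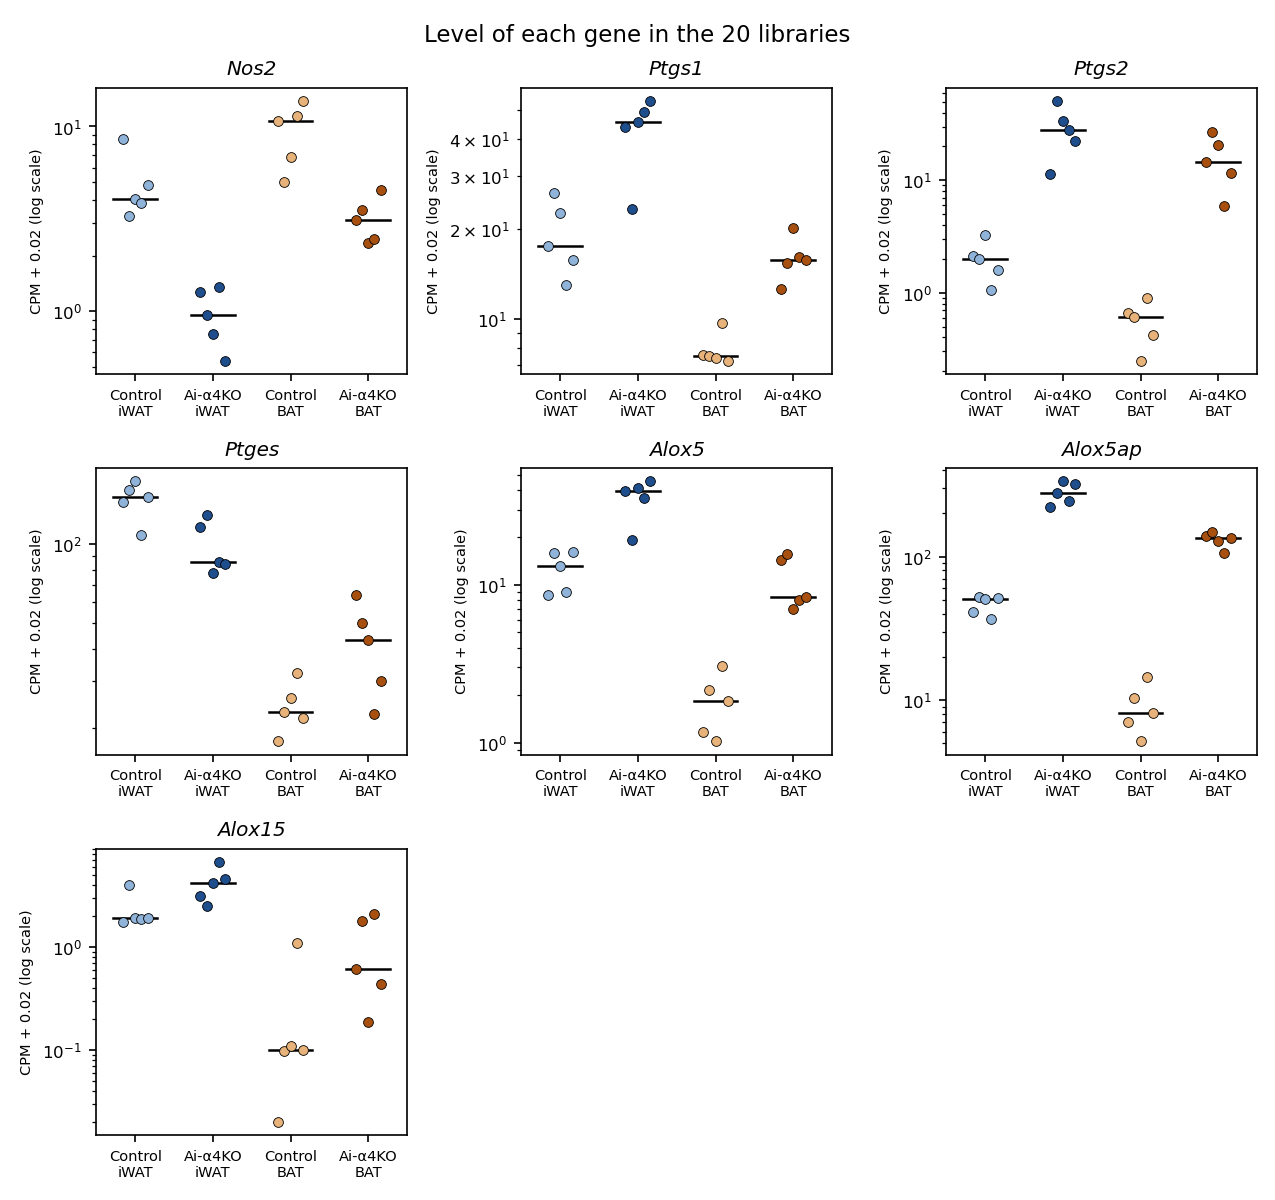
CPM plus 0.02 on a log axis for each of the 7 genes in the 20 libraries, by group; each point is 1 library and the line is the median of 5. Control and Ai-α4KO points separate fully in both tissues for Nos2, Ptgs2, Alox5 and Alox5ap.

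Ptgs2 encodes cyclooxygenase 2, the inducible enzyme that converts arachidonate to prostaglandin H2 (chromosome 1, 150100124 to 150108012), and rose in both tissues. In Control iWAT it was at 2.10, 1.99, 3.23, 1.04 and 1.58 CPM, and in Ai-α4KO iWAT at 11.4, 51.1, 33.6, 28.2 and 22.4 CPM. The groups were well apart, and the log2 fold change of 3.88 (adjusted p = 2.2e-05, standard error 0.42) is 14.7-fold. Control BAT held 0.637, 0.587, 0.227, 0.882 and 0.398 CPM and Ai-α4KO BAT 14.4, 26.9, 20.7, 5.83 and 11.6 CPM. Here too every Ai-α4KO library was above every Control library, with a log2 fold change of 4.80 (adjusted p = 2.89e-06, standard error 0.46). The Control BAT values rest on 14, 15, 5, 25 and 10 counts, so the size of this change is imprecise. On the log2(FPKM + 1) scale of limma it was 1.93, and in iWAT 2.36. From the highest mean to the lowest, the order was Ai-α4KO iWAT, Ai-α4KO BAT, Control iWAT and Control BAT, and the first pair overlapped while the others did not.

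Ptgs1, the constitutive cyclooxygenase 1 (chromosome 2, 36230426 to 36252271), rose less. Control iWAT libraries were at 17.5, 26.4, 22.6, 13.0 and 15.7 CPM and Ai-α4KO iWAT libraries at 43.6, 23.3, 45.6, 49.2 and 53.6 CPM. Library 2 of Ai-α4KO iWAT fell within the Control range, and the other 4 lay above it. That library also had the fewest mast cell and stromal progenitor markers of its group (56.4 CPM against 116 to 168, and 1460 against 2740 to 3350). Its neutrophil (538 against 179 to 369) and epithelial markers (104 against 4.23 to 49.8) were the highest of the group, and the part of these cells was not tested. The log2 fold change was 1.17 (adjusted p = 0.00168, standard error 0.24), and without both Control iWAT libraries 1 and 4, those with B cell markers, it was 0.92 (adjusted p = 0.0173, range over alternatives 2.05e-05 to 0.0173), which is no longer a call. In BAT it was at 7.56, 7.47, 7.39, 9.63 and 7.21 CPM in Control and 12.6, 15.4, 20.1, 16.1 and 15.7 CPM in Ai-α4KO libraries. The BAT groups were separate, but the log2 fold change of 0.99 (adjusted p = 0.000169, standard error 0.16) was just under 2-fold and was not called. Leaving out Control BAT library 4 or Ai-α4KO BAT library 1, 2 or 4 moved it to 1 to 1.07, which is a call. With all libraries, 6 other settings also called it, at 1.02 to 1.24, among them DESeq2 (1.02), and of 19 alternatives 9 left it uncalled. By mean level the order was Ai-α4KO iWAT, Control iWAT, Ai-α4KO BAT and Control BAT, and neighbours overlapped except for the last pair.

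Set against each other per transcript length, the cyclooxygenases shifted towards Ptgs2. The share of Ptgs2 in their summed FPKM was 7.65, 4.96, 8.99, 5.26 and 6.50% in Control iWAT and 15.3, 60.2, 33.8, 28.4 and 22.4% in Ai-α4KO iWAT. In BAT it was 5.51, 5.15, 2.08, 5.95 and 3.68% in Control and 44.2, 54.8, 41.7, 20 and 33.8% in Ai-α4KO libraries. Each Ai-α4KO library had a larger share than any Control library of its tissue, and Ptgs2 was the more abundant in Ai-α4KO library 2 of each tissue. The log2 ratio differed by 2.36 in iWAT (from -3.53 ± 0.32 to -1.18 ± 1.13, SD, n = 5) and by 2.80 in BAT (from -3.48 ± 0.24 to -0.68 ± 0.82), each with an adjusted p of 0.0316 over 8 comparisons (exact permutation test, two-sided). The unadjusted p was 0.0079 in both, the smallest that 5 libraries against 5 allow. With any 1 of the Control iWAT libraries left out, the iWAT difference was 2.24 to 2.45 with an adjusted p of 0.0635, and without Control BAT library 3 the BAT difference was 2.71 with the same adjusted p (exact permutation test).

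**Figure D3:**
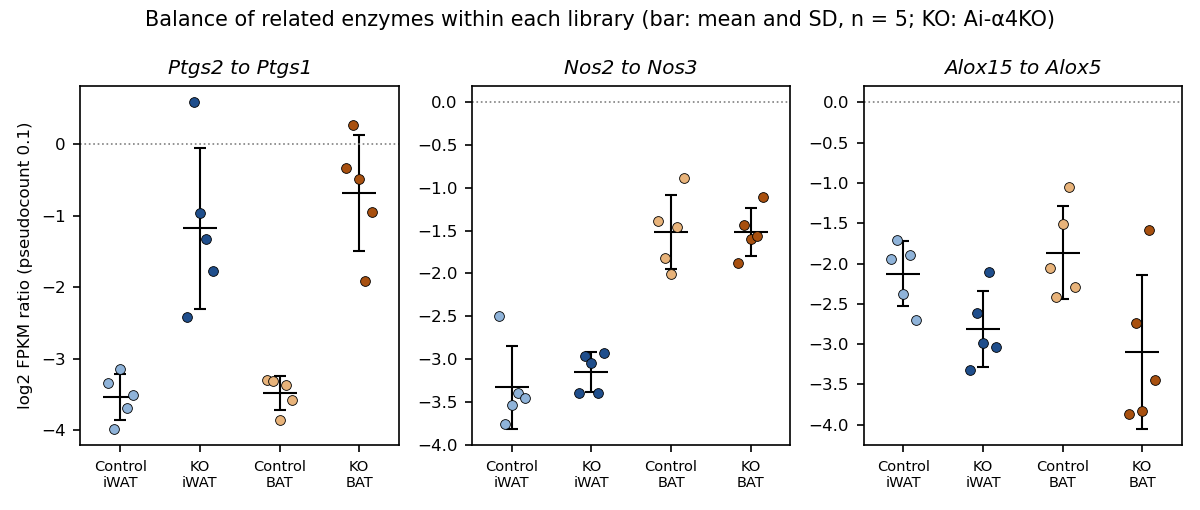
Log2 ratio of FPKM (pseudocount 0.1) of 3 pairs of related enzymes in each library, by group; KO stands for Ai-α4KO, horizontal marks and bars are the mean and SD of 5 libraries, and the dotted line is equal FPKM. The Ptgs2 to Ptgs1 ratio is between -3.98 and -3.15 in Control iWAT and between -2.42 and 0.59 in Ai-α4KO iWAT, while Nos2 to Nos3 differs between the tissues and overlaps between genotypes.

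Ptges, the microsomal prostaglandin E synthase that turns prostaglandin H2 into prostaglandin E2 (chromosome 2, 30889471 to 30903297), was not called in either tissue and had opposite signs in the 2. Its level was 145, 161, 174, 108 and 151 CPM in Control iWAT and 116, 129, 77.4, 85.8 and 83.8 CPM in Ai-α4KO iWAT. Most Ai-α4KO iWAT libraries were under the Control range, and libraries 1 and 2 lay inside it. The log2 fold change there was -0.59 (adjusted p = 0.0128, standard error 0.17). In BAT, Control libraries held 17.7, 23.0, 25.9, 32.4 and 21.8 CPM and Ai-α4KO libraries 63.8, 50.1, 43.2, 22.5 and 30.1 CPM. The BAT groups overlapped in the same way with the sign turned, and the log2 fold change was 0.76 (adjusted p = 0.0216, standard error 0.26). Without normalization factors it was 1.04 in BAT with an adjusted p of 0.00686 (range over alternatives 0.00291 to 0.0703). Mean levels were highest in Control iWAT, then Ai-α4KO iWAT, Ai-α4KO BAT and Control BAT, and libraries of the 2 tissues did not overlap in the middle pair.

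Alox5ap encodes FLAP, the membrane protein that hands arachidonate to 5-lipoxygenase (chromosome 5, 149265058 to 149288047), and was the most abundant of the 7 genes per transcript length in all 4 groups. In Control iWAT it was at 41, 52.2, 50.6, 36.8 and 51.1 CPM, and in Ai-α4KO iWAT at 223, 277, 336, 242 and 321 CPM. The spread within groups was narrow beside the gap, and the log2 fold change was 2.59 (adjusted p = 1.86e-06, standard error 0.15). Control BAT held 6.97, 10.3, 5.12, 14.4 and 8.12 CPM and Ai-α4KO BAT 139, 149, 128, 105 and 135 CPM. All Ai-α4KO BAT libraries were also above every Control iWAT library, and the log2 fold change in BAT was 3.83 (adjusted p = 1.74e-07, standard error 0.25). The 4 groups came in the order Ai-α4KO iWAT, Ai-α4KO BAT, Control iWAT and Control BAT, with no overlap between neighbours.

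Alox5, 5-lipoxygenase itself, the first enzyme of leukotriene synthesis (chromosome 6, 116410071 to 116461178), rose with its partner. Control iWAT libraries were at 8.66, 15.9, 13.1, 8.97 and 16.2 CPM, and Ai-α4KO iWAT libraries at 39.3, 19.4, 41, 35.4 and 45.6 CPM. Ai-α4KO library 2 was the nearest to Control and still above it, and the log2 fold change was 1.52 (adjusted p = 0.000428, standard error 0.25). BAT libraries held 1.14, 2.15, 0.997, 3.03 and 1.83 CPM in Control and 14.3, 15.7, 7.03, 8.05 and 8.40 CPM in Ai-α4KO. The genotypes were apart in BAT as well, with a log2 fold change of 2.5 (adjusted p = 4.98e-05, standard error 0.34). Ai-α4KO BAT overlapped Control iWAT in level, the only overlap between neighbours in the order Ai-α4KO iWAT, Control iWAT, Ai-α4KO BAT and Control BAT.

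Alox15, the 12/15-lipoxygenase (chromosome 11, 70344147 to 70352031), was low and not called in either tissue. It was at 1.74, 3.98, 1.92, 1.88 and 1.91 CPM in Control iWAT and 3.14, 2.51, 4.20, 6.79 and 4.54 CPM in Ai-α4KO iWAT. Library 2 of Control iWAT was the highest Control and lay among the Ai-α4KO libraries. The log2 fold change was 0.89 (adjusted p = 0.0367, standard error 0.32), and without that library it was 1.18 (adjusted p = 0.00721, range over alternatives 0.00721 to 0.266), which is a call. In Control BAT the rounded counts were 0, 2, 2, 31 and 2, or 0, 0.0782, 0.0906, 1.09 and 0.0796 CPM, and Ai-α4KO BAT libraries were at 0.596, 1.79, 0.169, 2.09 and 0.422 CPM. Control BAT library 4 alone reached the Ai-α4KO range, and it was also the highest of its group for eosinophil markers (1.66 against 0.0782 to 0.181 CPM), macrophage markers (589 against 250 to 425) and mast cell markers (62.3 against 29.5 to 41.4), whose part was not tested. With it the log2 fold change was 1.80 (adjusted p = 0.102, standard error 0.91), and without it 3.89 (adjusted p = 0.00328, range over alternatives 0.00328 to 0.204), also a call. Neighbouring groups in the order of mean level all overlapped. The log2 FPKM ratio of Alox15 to Alox5 was -2.12 ± 0.41 in Control and -2.81 ± 0.47 in Ai-α4KO iWAT, and -1.87 ± 0.57 and -3.09 ± 0.96 in BAT (SD, n = 5). Those differences of -0.69 and -1.23 did not pass the threshold (exact permutation test, two-sided, adjusted p = 0.0794 and 0.089 over 8 comparisons). Without Ai-α4KO library 4 of each tissue they were -0.86 (exact permutation test, adjusted p = 0.0476) and -1.61 (adjusted p = 0.0159). The BAT ratios carry no direction, since Alox15 was below the pseudocount of 0.1 FPKM in 4 of 5 Control BAT libraries. As a share of the summed FPKM without a pseudocount, Alox15 had a median of 4.84% in BAT of Control (0 to 29.7%) and 5.55% in that of Ai-α4KO mice (2.74 to 23.3%). In iWAT the median share was 19% in Control (12.1 to 22.6%) and 10.7% in Ai-α4KO libraries (8.57 to 18.3%).

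Compared per transcript length, the 7 genes shared their first places across the groups and differed in the last. Ptges came second by mean after Alox5ap in all 4, at 36.3 ± 5.04 FPKM in iWAT of Control and 26.4 ± 6.21 in that of Ai-α4KO mice, and at 5.15 ± 1.23 and 10.6 ± 4.51 in BAT (SD, n = 5). The last place was held by Ptgs2 in Control iWAT (0.425 ± 0.148 FPKM), Nos2 in Ai-α4KO iWAT (0.236 ± 0.0871) and Alox15 in both BAT groups (0.0884 ± 0.154 in Control and 0.380 ± 0.318 in Ai-α4KO). The neighbouring ranks were not tested.

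Whether a genotype effect differed between tissues was tested as an interaction, the iWAT effect minus the BAT effect, in a fit of all 20 libraries. At an adjusted p below 0.01, 2 of the 7 genes were called, against 4.86% of all 15230 genes tested. For Ptges the difference was -1.38 (adjusted p = 0.00973, standard error 0.33) and for Alox5ap -1.27 (adjusted p = 0.00732, standard error 0.29). Ptges had a negative sign in iWAT and a positive one in BAT, while Alox5ap rose in both and by more in BAT. Both calls were close to the threshold. The interactions of the listed macrophage markers were all negative too, from -2.15 to -0.45, and their part in the Alox5ap difference was not tested. The Ptges call was lost in 13 of 20 fits that left out 1 library, all but those without Control iWAT 1 or 4, Ai-α4KO iWAT 1 or 2, Control BAT 4, or Ai-α4KO BAT 4 or 5, with values of -1.46 to -1.29 and adjusted p of 0.0117 to 0.021. The Alox5ap call was lost in 6, without Control iWAT 2, 3 or 5 or Control BAT 1, 3 or 5, with values of -1.24 to -1.12 and adjusted p of 0.0107 to 0.0167. Of the rest, the 95% interval for Ptgs2 was -2.14 to 0.24, for Nos2 -1.65 to 0.12, for Ptgs1 -0.41 to 0.73, for Alox5 -1.86 to -0.16 and for Alox15 -2.91 to 1. These intervals use a normal quantile and are not adjusted for the number of genes tested. None of these genes was called, and for Alox5 the adjusted p was 0.118 in the interaction test. The Alox15 difference was -0.96 (adjusted p = 0.539), and without Control BAT library 4 it was -3.05 (adjusted p = 0.0321, range over alternatives 0.0321 to 0.761).

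Without the deletion, the arachidonate genes were lower in BAT than in iWAT. Of 7 genes tested between the Control tissues, 6 were called lower in BAT, against 14.7% of all genes in that direction. Log2 differences, BAT minus iWAT, were -2.81 for Alox5 (adjusted p = 4.57e-05, standard error 0.33), -2.65 for Ptges (adjusted p = 3.46e-06, standard error 0.18), -2.40 for Alox5ap (adjusted p = 2.14e-05, standard error 0.25), -1.88 for Ptgs2 (adjusted p = 0.00194, standard error 0.39) and -1.31 for Ptgs1 (adjusted p = 0.00023, standard error 0.20). The Ptgs2 call was lost on the log2(FPKM + 1) scale of limma, where the difference was -0.36 (adjusted p = 0.00161), under 2-fold. Alox15 was called at -3.04 (adjusted p = 0.00785, standard error 0.80), but leaving out any 1 of the 10 libraries other than Control BAT library 4 gave an adjusted p of 0.0101 to 0.0226 with values of -3.12 to -2.74, and leaving out that library gave -5.12 (adjusted p = 5.63e-05). Without both Control iWAT libraries 1 and 4 it was -3.20 (adjusted p = 0.0116), also no call. Higher in BAT were 7.22% of all genes. Nos2 had that sign, at 0.93 (adjusted p = 0.0361, standard error 0.33), and was called at 1.23 without Control iWAT library 1 (adjusted p = 0.00657, range over alternatives 0.00657 to 0.101). Macrophage markers were lower in BAT, with a summed 1260 to 2160 CPM in Control iWAT and 250 to 589 in Control BAT. So were stromal progenitor markers, at 1450 to 2600 and 695 to 1030 CPM. B cell (5.97 to 467 and 1.33 to 4.51), T cell (7.91 to 238 and 2.81 to 4.93) and epithelial markers (1.01 to 59.3 and 0.282 to 0.637) were lower without overlap too. Endothelial markers were higher in BAT (392 to 523 and 692 to 954), as were brown adipocyte markers. The part of any of these in the differences was not tested.

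With the deletion the same comparison, BAT minus iWAT within Ai-α4KO, gave 5 calls among 7 genes tested. Lower in BAT, against 3.09% of all genes, were Alox5 at -1.71 (adjusted p = 0.000992, standard error 0.27), Ptgs1 at -1.38 (adjusted p = 0.000778, standard error 0.21), Ptges at -1.19 (adjusted p = 0.00455, standard error 0.26) and Alox5ap at -1.05 (adjusted p = 0.000408, standard error 0.14). Nos2 was higher in BAT, by 1.77 (adjusted p = 0.00144, standard error 0.31), with 8.4% of all genes in that direction, and on the log2(FPKM + 1) scale of limma it was at 0.48 (adjusted p = 0.00196), under 2-fold. Alox15, at -1.99 (adjusted p = 0.0174, standard error 0.56), was not called although its libraries did not overlap between tissues, and DESeq2 called it at -1.97 (adjusted p = 0.00104, range over alternatives 0.00104 to 0.0436). Ptgs2, at -0.84 (adjusted p = 0.135, standard error 0.42), was not called either. The Ptges call was lost without Ai-α4KO iWAT library 2 (-1.08, adjusted p = 0.0108), Ai-α4KO BAT library 3 (-1.20, adjusted p = 0.0115) or 5 (-1.09, adjusted p = 0.0133), and Alox5ap came just under 2-fold without Ai-α4KO iWAT library 3 (-0.97) or 5 (-0.99) or Ai-α4KO BAT library 4 (-0.98).

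Macrophage and neutrophil markers rose in both tissues, while mast cell, T cell and B cell markers had no such calls in iWAT. Macrophage markers, among them Itgam, rose for 9 of 10 genes in iWAT and 10 of 10 in BAT, and their summed level went from 1260 to 2160 CPM in Control to 7740 to 10700 in Ai-α4KO iWAT, and from 250 to 589 to 4430 to 7420 in BAT. Neutrophil markers rose for 4 of 6 tested genes in iWAT and 6 of 6 in BAT, from 39.4 to 138 CPM to 179 to 538, and from 14.3 to 41.6 to 212 to 397. Skeletal muscle markers did not overlap between genotypes in BAT either, at 855 to 9330 CPM in Control and 13100 to 41800 in Ai-α4KO libraries, with 5 of 7 genes called higher. Mast cell markers were called higher for 6 of 7 genes in BAT, T cell markers for 4 of 6 and B cell markers for 1 of 3, with 1 mast cell gene lower. In iWAT 1 of 7 mast cell and 1 of 6 B cell genes were called lower and the rest of the 3 lists were not called. The T and B cell values in iWAT turn on Control libraries 1 and 4, which held 220 and 238 CPM of T cell markers. The other 3 Control libraries were at 7.91 to 10.7 CPM, and Ai-α4KO libraries at 14.8 to 55. For B cell markers, those 3 were at 5.97 to 7.80 CPM and Ai-α4KO libraries at 5.17 to 13. Eosinophil markers were called higher for 1 of 2 tested genes in each tissue. Stromal progenitor markers were called higher for 1 of 6 genes in each, and their summed level did not overlap between genotypes in BAT, at 695 to 1030 CPM in Control and 1400 to 1740 in Ai-α4KO libraries. No marker gene of the 12 lists was at 0 in all libraries. The part of each of these cell types in the results above was not tested.

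**Figure D4:**
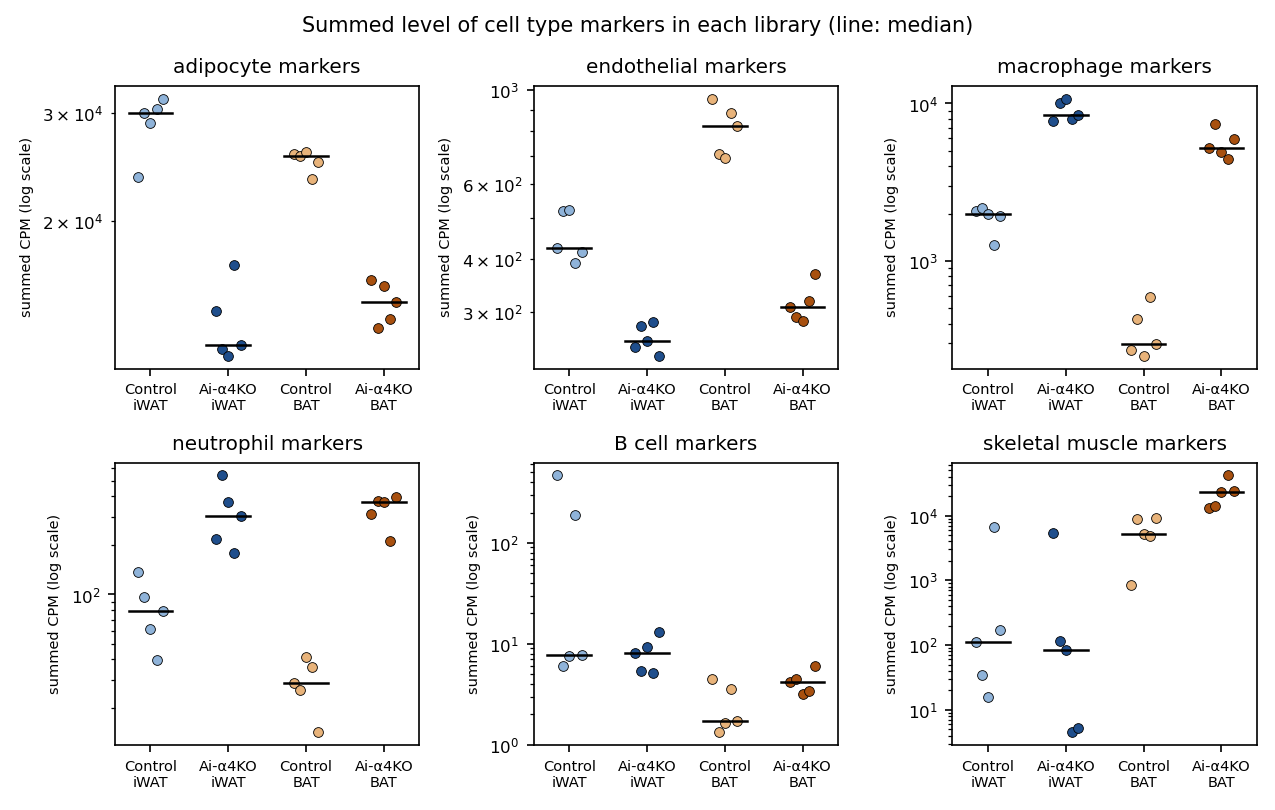
Summed CPM of the markers of 6 cell types in each library, on log axes, by group, with the median of 5 libraries as a line. Macrophage markers rise from 1260 to 2160 CPM to 7740 to 10700 in iWAT and from 250 to 589 to 4430 to 7420 in BAT, and B cell and skeletal muscle markers show the single iWAT libraries that stand apart.

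The other genes of these pathways were taken from 7 lists with 90 genes in all. In iWAT 76 were tested, of which 21 rose and 11 fell; in BAT 75 were tested, of which 28 rose and 11 fell, and of the 72 tested in both tissues 19 rose and 6 fell in both, against 9.49% and 7.71% of all genes tested in both. Of all genes tested, 11.3% rose and 10.7% fell in iWAT, and 18.2% rose and 13.3% fell in BAT, and the counts of each list below are to be read against these shares. Beyond the pair with the largest change in each direction, genes below were named after their values were seen.

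Around nitric oxide synthesis, Gch1, which makes the first intermediate of the synthases' cofactor tetrahydrobiopterin, rose in iWAT by 1.79 on the log2 scale (standard error 0.17) and in BAT by 1.39 (standard error 0.22). Of 16 genes tested in iWAT, 2 rose, Gch1 and the endothelial synthase's trafficking partner Nostrin (1.65, standard error 0.20), and Nos3 fell. In BAT 3 of 17 rose, Gch1, the cGMP-dependent kinase Prkg1 (2.04, standard error 0.49) and Ddah1 (1.33), which breaks down methylated arginines. The 4 that fell in BAT were Nos3, Pts (-1.23) of the cofactor pathway and Gucy1a3 (-1.26) and Gucy1b3 (-1.01), subunits of the guanylate cyclase that nitric oxide activates. The list's median was -0.32 in iWAT and -0.51 in BAT.

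Arginine and polyamine genes rose for 4 of 18 tested in iWAT and 7 of 18 in BAT, with list medians of 0.42 and 0.95. The arginine transporter Slc7a1 rose by 1.75 in iWAT and 2.09 in BAT (standard errors 0.14 and 0.19). Gatm, which uses arginine for creatine synthesis, rose by 1.58 and 2.30 (standard errors 0.23 and 0.23), and the polyamine catabolic enzymes Sat1 (1.77 and 1.61) and Smox (1.01 and 1.61) rose in both. Odc1, which makes putrescine from ornithine, changed by 0.81 and 0.77, under 2-fold. Azin2, an inhibitor of antizymes, fell in iWAT (-1.19, standard error 0.28).

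Among genes for arachidonate release and prostanoid synthesis, 5 of 15 tested rose and 3 fell in iWAT, and 6 of 15 rose and 3 fell in BAT. The secreted phospholipase Pla2g2e rose by 2.13 in iWAT and 3.94 in BAT (standard errors 0.52 and 0.52), and the cytosolic phospholipase Pla2g4a by 1.71 and 2.92. Thromboxane synthase, Tbxas1, rose by 2.01 and 3.47 (standard errors 0.20 and 0.31), the hematopoietic prostaglandin D synthase Hpgds by 1.82 and 3.60, and the carbonyl reductase Cbr2 by 1.10 and 2.81. Pla2g16, the main adipocyte phospholipase, fell (-2.29 and -1.49, standard errors 0.19 and 0.20), and so did Ptges2, annotated as a second prostaglandin E synthase (-1.38 and -1.75). Pla2g2d fell in iWAT (-2.02), while Ptgds, the lipocalin-type prostaglandin D synthase, fell in BAT (-2.51). The list's median was 0.49 in iWAT and 0.91 in BAT.

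Prostanoid receptors moved in both directions. The prostaglandin E2 receptor Ptger4 rose by 1.94 in iWAT and 2.45 in BAT (standard errors 0.22 and 0.28) and the prostacyclin receptor Ptgir by 2.31 and 2.01 (standard errors 0.22 and 0.25), and Ptger2 rose in iWAT (1.86). The antilipolytic prostaglandin E2 receptor Ptger3 fell (-2.71 and -1.87, standard errors 0.49 and 0.34), as did the prostaglandin F receptor Ptgfr in iWAT (-1.12). Of 6 tested in iWAT 3 rose and 2 fell, and of 5 in BAT 2 rose and 1 fell. Among 5 genes of breakdown and transport, Ptgr1, which inactivates leukotriene B4 and reduces prostaglandin metabolites, rose (1.65 and 2.04), the related reductase Ptgr2 fell (-1.36 and -1.65), and the prostaglandin transporter Slco2a1 rose in BAT (1.01).

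Of the 8 genes listed as leukotriene and lipoxin receptors, 6 were tested and 5 rose in each tissue, with medians over the 6 of 2.74 in iWAT and 3.73 in BAT beside 0.015 and -0.032 over all genes. Fpr1 and Fpr2, formyl peptide receptors of which Fpr2 also binds lipoxins, rose by 3.83 and 3.71 in iWAT (standard errors 0.71 and 0.47) and by 5.4 and 5.18 in BAT (standard errors 0.44 and 0.38). The cysteinyl leukotriene receptors Cysltr1 (2.83 and 3.78) and Cysltr2 (1.39 and 2.27) and the leukotriene B4 receptor Ltb4r1 (2.64 and 3.69) also rose, and Cmklr1, the receptor of chemerin, was at -1.07 and 0.99 and not called. Of the enzymes and other lipoxygenases, 1 of 10 tested rose and 3 fell in iWAT, and 3 of 9 rose and 2 fell in BAT, with medians of -0.46 and 0.37. Dpep2, a dipeptidase that converts leukotriene D4 to E4, rose by 2.84 and 4.51 (standard errors 0.21 and 0.26), and Ltc4s, the leukotriene C4 synthase, was at 0.63 in iWAT and rose by 1.58 in BAT, as did Ggt5 (1.03). Mgst2 fell in both tissues (-2.52 and -1.61), Mgst3 (-1.99) and the epoxide hydrolase Ephx2 (-1.14) in iWAT, and Dpep1 (-1.83) in BAT. The leukotriene A4 hydrolase Lta4h was at 0.54 and 0.37 and not called, under 2-fold in both tissues and with an adjusted p of 0.0114 in BAT (edgeR).

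**Figure D5:**
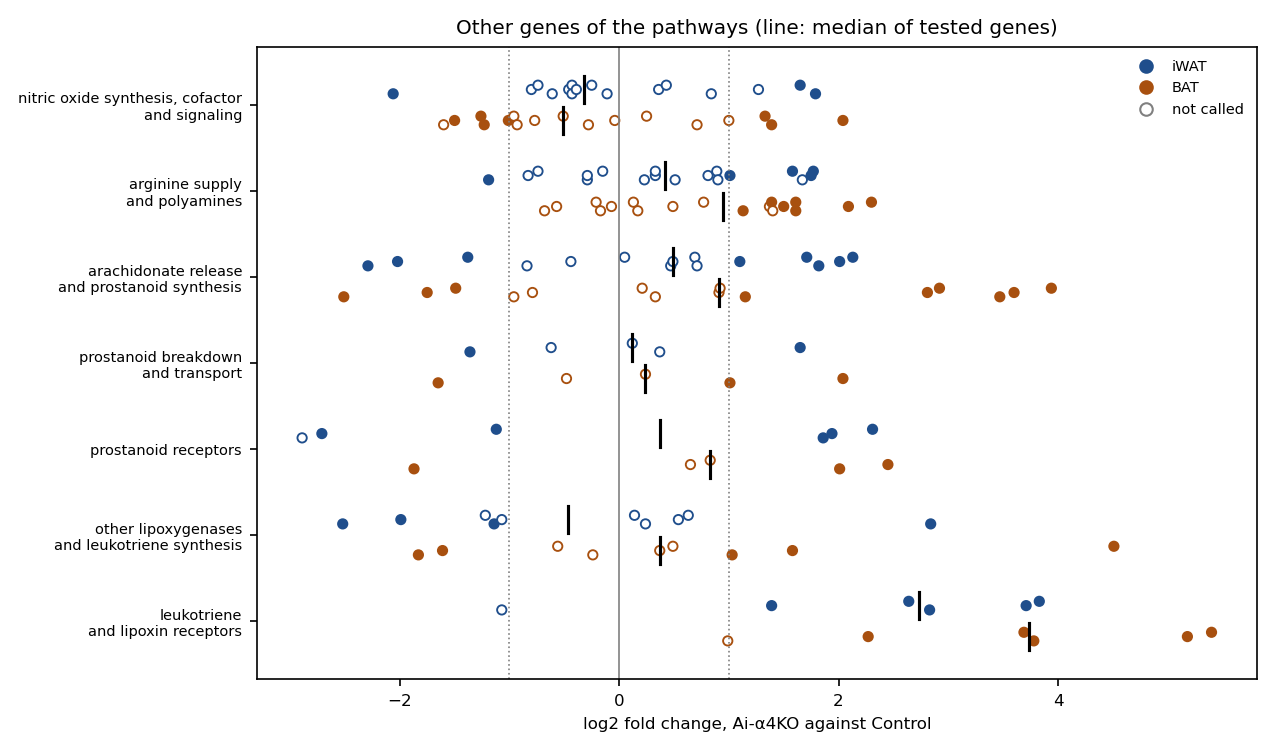
Log2 fold change of Ai-α4KO against Control for the tested genes of the 7 pathway lists, in iWAT (blue, upper row of each list) and BAT (brown, lower row); filled points were called and black lines are list medians. The leukotriene and lipoxin receptors lie farthest to the right, with medians of 2.74 in iWAT and 3.73 in BAT.

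Likeness of expression was described by Pearson's r of log2 CPM over all 20 libraries, which fall into 4 groups, and by r after group means were subtracted. The 3 genes most like Nos2 among 15230 were Notch3 (0.953), Ephb4 (0.949) and Oplah (0.949), with 0.79, 0.80 and 0.77 within groups. Among the genes nearest to Ptgs2 were Ptgr1 (0.979) and Ms4a6d (0.978), with 0.70 and 0.80 within groups. For Ptgs1 the nearest were Pros1 (0.957) and Mex3b (0.946), with 0.73 and 0.57 within groups, and Gm13298 (0.945), with 0.74.

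Alox5ap was most like Itgam (0.995), an integrin subunit on the macrophage marker list, Ctsc (0.995) and Ccdc109b (0.994), with 0.89, 0.85 and 0.80 within groups. Alox5 was nearest to the macrophage lectin Mgl2 (0.979), Trerf1 (0.978) and Ugt1a7c (0.977), with 0.75, 0.73 and 0.79 within groups. Alox15 was nearest to Chp2 (0.936), Olfml2b (0.931) and Il1rl2 (0.930), and Ptges to C2 (0.958), Psen2 (0.955) and Serpina3c (0.954). All these values come from the same 20 libraries.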

How the data were processed

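The authors deposited, for each gene in each of 20 libraries, an expected count without normalization and an FPKM value. Stranded mRNA libraries were read as pairs, and the submitters' processing notes name bcl2fastq 2, STAR 2.5.3a and mm10. The counting tool, its strand setting and the annotation are not given in the sources used here. After rounding, the counts were tested in edgeR 4.0.16 under R 4.3.3 (filterByExpr, TMM, quasi-likelihood test, no covariates, Benjamini-Hochberg over all genes tested), within a tissue or, for the interaction, over all libraries. Log2 FPKM ratios used a pseudocount of 0.1 and exact permutation tests. Alternatives were DESeq2 1.42.0, limma 3.58.1 on log2 FPKM with pseudocounts of 1 and 0.1, other scalings, filters and pseudocounts, one fit of all libraries, an adjusted p below 0.05, a replicate block and leaving out libraries. The edgeR step was tested on simulated data. Intervals cover the fitted spread.

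The genes and lists were chosen with earlier results of these data known. Named genes are the 7, Igbp1, Nos3, the 2 genes called with the largest change in each direction of each list and tissue, and the 3 genes most correlated with each of the 7. Some items that this rule names, and 2 of the 8 ratio comparisons, are not reported here. Any other gene is said to be named after its values were seen. Of the listed symbols, 2 were not in the table. Totals ran from 24023371 to 50384446 counts, and levels of a few counts are imprecise.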

Additional observations from a re-analysis of the deposited data

Results flagged for a closer look

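In 3 of the 28 groups of 5 libraries tested (7 genes in 4 groups), 1 library lay far from the other 4, its gap to the nearest of them being over 0.71 of the whole range. Chance gives such a gap in about 1 in 20 groups. Alox15 was at 3.98 CPM in Control iWAT library 2, against 1.74 to 1.92, and at 1.09 CPM in Control BAT library 4, against 0 to 0.0906. Both libraries were the highest of their group for eosinophil, mast cell and macrophage markers. Eosinophil markers were at 5.28 CPM against 1.29 to 3.27 and at 1.66 against 0.0782 to 0.181. Mast cell markers were at 149 against 52 to 113 and at 62.3 against 29.5 to 41.4. Macrophage markers were at 2160 against 1260 to 2060 and at 589 against 250 to 425. The part of these cells was not tested. Ptgs1 was at 9.63 CPM in the same Control BAT library 4, against 7.21 to 7.56.

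The genotype effect differed between tissues for 2 of the 7 genes by the interaction test of edgeR. The iWAT effect minus the BAT effect was -1.38 for Ptges (adjusted p = 0.00973) and -1.27 for Alox5ap (adjusted p = 0.00732) on the log2 scale. With 1 library left out, adjusted p reached 0.021 for Ptges and 0.0167 for Alox5ap.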

How the results depend on the processing

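The labels do not say whether replicate numbers pair libraries. Same-numbered libraries of the genotypes deviated together with r of -0.45 to 0.13 for iWAT and -0.15 to 0.22 for BAT. Those of the tissues did so with r of -0.08 to 0.22 for Control and -0.27 to 0.24 for Ai-α4KO. Such values cannot show that the libraries are unpaired, and the main tests treat them as unpaired. With the replicate block, 3 genes rather than 4 rose in iWAT, because Ptgs1 (1.18, adjusted p = 0.014) missed the threshold, and 0 rather than 2 interactions were called by edgeR (Ptges -1.32, adjusted p = 0.0185, and Alox5ap -1.29, adjusted p = 0.0146). Ptgs2 between Control tissues also missed it (-1.85, adjusted p = 0.0143). The block gave the Ptgs2 to Ptgs1 differences of 2.36 and 2.80 an adjusted p of 0.1, where 5 pairs allow no unadjusted p below 0.0625.

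With limma on log2(FPKM + 1), Nos2 was under 2-fold, so 0 genes fell in iWAT and 0 in BAT, 1 interaction was called and 7 pathway genes rather than 11 fell in BAT. That scale also turned the interactions of Ptgs2 (0.43) and Alox15 (0.22). Without normalization factors 5 genes rather than 3 rose in BAT. Without both Control iWAT libraries 1 and 4 the Ptgs1 interaction was -0.14. Without both Control iWAT library 4 and Ai-α4KO iWAT library 1, an alternative chosen after seeing the data, it was -0.08. With a pseudocount of 1 FPKM the Nos2 to Nos3 difference was 0.94 in iWAT (exact permutation test, adjusted p = 0.0212) and 0.24 in BAT. The Alox15 to Alox5 differences were then -0.88 in iWAT and -1.21 in BAT (exact permutation test, adjusted p = 0.0254 and 0.0212). The BAT value carries no direction, since mean Alox15 was 0.0884 FPKM in Control and 0.38 in Ai-α4KO BAT, under the pseudocount. Mean Alox15 in Control iWAT, 0.853 FPKM, was also under it. With 0.01 FPKM, Nos2 to Nos3 was -0.14 in iWAT. Mean Nos2 there was 1.11 FPKM in Control and 0.236 in Ai-α4KO, and mean Nos3 11.4 and 3. A pseudocount of 1 therefore shrinks the fall of Nos2 more than that of Nos3. The cause of the other shifts was not tested.

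With each library left out in turn, 4 to 5 genes rose and 1 fell in iWAT, 3 to 5 rose and 1 fell in BAT (5 without Control BAT library 4), 0 to 2 interactions were called, and 5 to 6 genes differed between Control and 4 to 5 between Ai-α4KO tissues. The Ptgs1 interaction ranged from -0.03 to 0.30. The Ptgs2 to Ptgs1 difference ranged from 1.91 to 2.67 in iWAT and 2.57 to 3.11 in BAT, Nos2 to Nos3 from 0.08 to 0.39 and -0.13 to 0.15, and Alox15 to Alox5 from -0.86 to -0.56 and -1.61 to -1.03. The BAT range of Alox15 to Alox5 carries no direction, since Alox15 was below the pseudocount of 0.1 FPKM in 4 Control BAT libraries. Over all genes the interaction split moved from 244 higher and 496 lower to 115 and 604 without normalization factors and to 386 and 1254 with DESeq2. Depth limits Alox15 in Control BAT, where 4 libraries held at most 2 counts.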
